A study of Homo sapiens with 9 samples.

Results

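The cytosolic heat shock proteins examined here are 10 chaperones and co-chaperones of the cytosol: HSPA1A, HSPA1B, HSPA8, HSPA4, HSPH1, HSP90AA1, HSP90AB1, HSPB1, DNAJB1 and BAG3. They were chosen by name and not by a measured value, though with earlier results of these data known. Their ribosome footprints were read in both deposited comparisons of compound with vehicle as a readout of proteotoxic stress. Of the 10 genes, 8 had a row in each table, and HSPA1A and HSPA1B had no row in either. The table for PF8503 held 9157 transcripts, that for PF846 held 8839, and 9221 transcripts were in at least one of them.

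Ribosome profiling reads the stretches of mRNA covered by ribosomes and so spared by nuclease, and the count of these footprints on a coding sequence follows the amount of ribosomes translating it. Huh-7 cells, a line from a human hepatocellular carcinoma, were treated for 1 hr with 1.5 μM PF8503 (PF-06378503 in the labels), with 1.5 μM PF846 (written PF-067446846 there), or with vehicle, which was 0.5% DMSO. Each condition had 3 libraries, 9 in all, and both tables used the same vehicle libraries. The values are the authors' means over the libraries of a condition, with no value of a single library, so no replicate error or depth per library could be given. The authors' own test columns were not used and no test was computed here, so every ratio below is a description. The study's supplement gives other replicate numbers than the labels, so it is uncertain which libraries the means cover.

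Heat shock proteins bind unfolded or partly folded proteins and keep them from aggregating. HSP70 proteins such as HSPA8 and HSPA1A cycle on and off their clients under the control of J-domain proteins, which deliver clients and stimulate ATP hydrolysis, and of nucleotide exchange factors, which release them, while HSP90 proteins take over many clients for late folding steps. When unfolded proteins accumulate, heat shock factor 1 (HSF1) binds heat shock elements in promoters and induces HSPA1A, HSPA1B, DNAJB1, BAG3, HSPB1, HSPH1 and other chaperones, which makes these genes a common readout of proteotoxic stress.

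The inducible HSP70 genes HSPA1A and HSPA1B, the standard markers of this response, had no row and could not be analysed here. They lie side by side on chromosome 6 (GRCh38, chr6:31815543-31817946 and chr6:31827738-31830254, both on the plus strand), each with a single exon that holds 641 codons in the GENCODE annotation. Their coding sequences were 99.8% identical over 1923 bases, with 4 bases and 0 amino acids different. Counted from the A of the start codon, with the HSPA1A base first, the differences were G1710T, G1860C, C1905T and A1920G, all at the third position of their codons. The sequences around the first pair of differences, those inside the counted codons, are shown because most windows that tell the genes apart within these codons cover them, with the differing base in capitals and the plus strand of GRCh38 written 5′ to 3′.
HSPA1A chr6:31817452-31817479: gacaagaagaaggtGctggacaagtgtc
HSPA1B chr6:31829646-31829673: gacaagaagaaggtTctggacaagtgtc
HSPA1A chr6:31817602-31817629: ggtcccgggcctggGggcttcggggctc
HSPA1B chr6:31829796-31829823: ggtcccgggcctggCggcttcggggctc

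A window of 28 bases, about the length of a footprint, was found once among 20457 canonical coding transcripts at 75 of the 1896 positions of HSPA1A (3.96%), and at as many in HSPA1B. The remaining 1821 windows of each gene were shared with the other one. Within the codons that were counted, 57 of 1866 windows (3.05%) were found once. For each of the other 8 members 100.0% of the windows were found once. The authors kept only reads with a single position. These windows count exact matches, and mismatches that an aligner may accept were not considered. The transcripts searched were from a later GENCODE release than the one the authors aligned to.

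Few genes around the pair had a row. In a region chosen after the values were seen, from 3 Mb before to 1 Mb after the start of HSPA1A, 1 of 139 RefSeq coding genes had a row (0.719%), against 445 of 910 (48.9%) on the rest of the chromosome and 9204 of 20056 (45.9%) over all chromosomes. The gene was APOM, which encodes an apolipoprotein. Genes without a row there included HSPA1L, a testis-enriched HSP70, the co-chaperone BAG6 and the tubulin gene TUBB. In BAG6 100.0% of windows were found once, and in HSPA1L 92.6%, among the canonical coding transcripts searched here. The authors aligned to an earlier GENCODE release, which was not searched. Whether reads of these genes had a single position there was not tested. HSP90AB1, at chr6:44246166-44253888 outside the region, had a row in both tables. Why HSPA1A, HSPA1B and their neighbours had no row in the tables as used here was not tested, and a missing row gives no level, high or low.

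**Figure D1:**
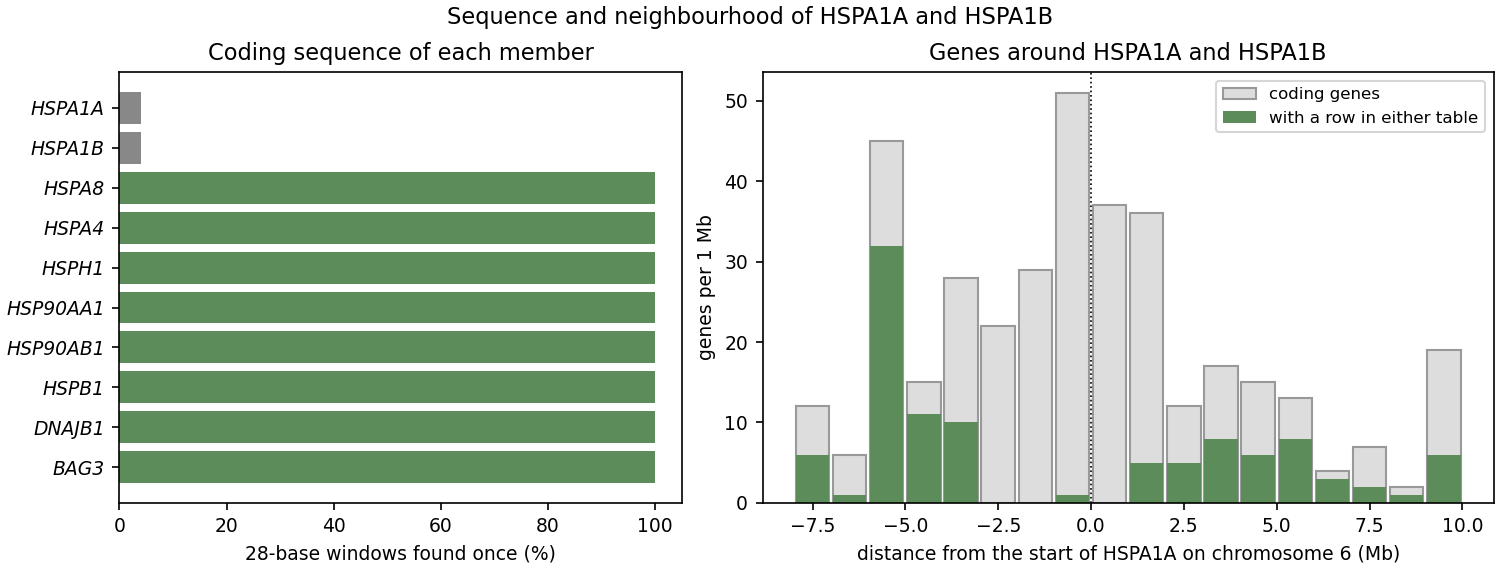
Left, share of 28-base windows of each member's coding sequence that were found once among canonical coding transcripts (percent, one bar per gene). Right, number of RefSeq coding genes per megabase bin along chromosome 6, as distance from the start of HSPA1A, with those that had a row in either table marked. HSPA1A and HSPA1B stand at 3.96% against 100.0% for the other 8 members, and genes around them rarely had a row.

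Heat shock elements, the sites bound by HSF1, were looked for in RefSeq promoters (GRCh38.p14) from 250 bases before to 50 bases after each start site. The element was written as 3 alternating units, GAANNTTCNNGAA or TTCNNGAANNTTC, where N is any base, which covers both strands. All 10 members had a promoter entry, and the element was found in 3 of them, HSPA8, HSP90AA1 and HSP90AB1. It was found in 172 of 35116 promoters (0.490%), in 166 of 27305 genes with a promoter entry (0.608%) and in 35 of 7271 genes that also had a row in the tables (0.481%). This pattern had no match in HSPA1A, HSPA1B, DNAJB1, BAG3, HSPB1 or HSPH1, named above as induced by HSF1. The matches are shown because they have the letters of the element, with the matching bases in capitals and 8 bases on each side, on the strand of the gene.
HSPA8 chr11:123062346-123062374, minus strand: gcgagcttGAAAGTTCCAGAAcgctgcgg
HSPA8 chr11:123062171-123062199, minus strand: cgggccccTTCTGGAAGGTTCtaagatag
HSP90AA1 chr14:102087112-102087140, minus strand: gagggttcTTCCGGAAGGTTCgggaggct
HSP90AB1 chr6:44247770-44247798, plus strand: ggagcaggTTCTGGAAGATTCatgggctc
HSP90AB1 chr6:44247823-44247851, plus strand: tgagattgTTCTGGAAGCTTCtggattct

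The HSPA8 matches began 230 and 55 bases before the start site and the HSP90AA1 match 88 bases before it. All 3 lay inside the annotated gene but outside its canonical transcript. The HSP90AB1 matches began 165 and 112 bases before another RefSeq start site, and lay in intron 1 of the canonical transcript. With 2 units, GAANNTTC or TTCNNGAA, matches were found in 7 of the 10 members, HSPA1A, HSPA1B, HSPA8, HSP90AA1, HSP90AB1, HSPB1 and DNAJB1, and in 16.2% of all genes. HSP90AA1 had 2 promoter entries, HSP90AB1 and DNAJB1 had 3 each, and the other members had 1, and a gene with more entries had more bases searched. A match is a description of the letters, and binding was not measured.

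The baseline levels of the 8 measured members fell into a high and a lower set. Levels were compared between genes as footprint density, the authors' vehicle mean divided by the codons counted, taken as the coding codons less 10 at each end. A shorter counted region, used by the authors where a ribosome stall was found, would make a density too low. Of the 9157 transcripts in the PF8503 table, 94.8% could be given a length, and their median density in vehicle was 0.865 normalized counts per codon.

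HSPA8 (HSC70, chr11:123057489-123063230), the constitutive HSP70 of the cytosol, had the highest density of the members, 59.8 normalized counts per codon in vehicle, rank 82 of 8680. HSP90AA1 (HSP90 alpha, chr14:102080742-102139699), the inducible HSP90, stood at 55.6 and rank 89. HSP90AB1 (HSP90 beta), the constitutive HSP90, stood at 52.9 and rank 95. The ratio of HSP90AA1 to HSP90AB1 was 1.05, so by this measure the inducible and the constitutive HSP90 stood side by side in vehicle-treated cells. The codons were those of GENCODE version 44. A longer coding sequence in the authors' earlier version would make a density too high, so which of the pair was higher is uncertain. HSPB1 (HSP27, chr7:76302673-76304295), an ATP-independent small heat shock protein of 205 codons that holds unfolded proteins in a refoldable state, stood at 45.3 and rank 120. These 4 genes were near the 99th percentile of all transcripts, 56.8 normalized counts per codon.

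The partners of HSP70 stood far lower. HSPA4 (chr5:133052013-133106449) and HSPH1 (chr13:31134973-31162388) are HSP110 proteins, relatives of HSP70 that act as its nucleotide exchange factors. HSPA4 had 4.21 normalized counts per codon (rank 1345) and HSPH1 2.92 (rank 1849). DNAJB1 (HSP40, chr19:14514769-14560391), the J-domain protein best known as an HSP70 partner in the heat shock response, had 3.61 (rank 1542). BAG3 (chr10:119651380-119677819), an HSP70 nucleotide exchange factor that directs clients to autophagy, had 1.32 (rank 3349), closest to the median of all transcripts. HSPA8 density was 14.2 times that of HSPA4, 16.6 times that of DNAJB1, 20.5 times that of HSPH1 and 45.4 times that of BAG3. Whether neighbours in this order differ beyond the spread between libraries could not be tested, and the order was the same when all coding codons were used.

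**Figure D2:**
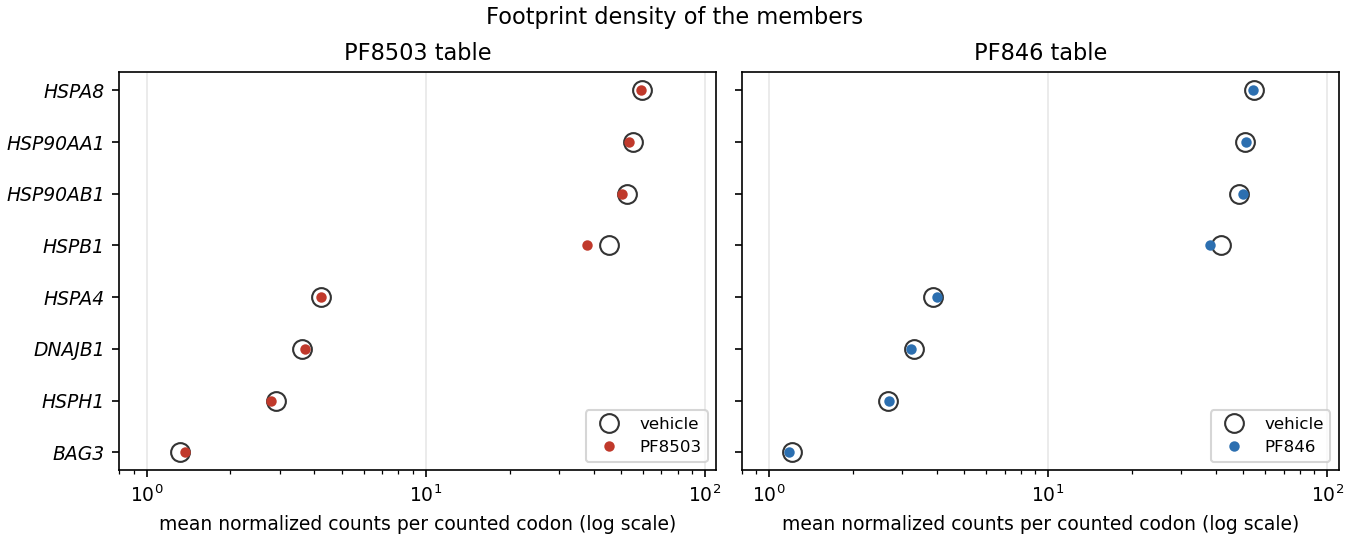
Footprint density of the 8 measured members in vehicle, PF8503 and PF846 samples, in mean normalized counts per counted codon on a log axis. Open circles are vehicle and filled circles compound, with one panel per table. HSPA8, HSP90AA1, HSP90AB1 and HSPB1 lie between 45.3 and 59.8 in vehicle (PF8503 table), the other 4 between 1.32 and 4.21, and HSPB1 shows the widest gap between vehicle and compound.

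Together the 8 members held 1.240% of the summed mean normalized counts of the PF8503 table in vehicle and 1.197% with PF8503. In the PF846 table the shares were 1.240% in vehicle and 1.245% with PF846. HSPA8, HSP90AA1 and HSP90AB1 made up 87.6% to 88.3% of the members' sum in each condition.

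None of the 8 measured members was at least 1.2-fold higher or lower with PF8503. Their log2 ratios of PF8503 over vehicle ran from -0.26 (HSPB1) to 0.060 (BAG3), with a median of -0.035. Of the 8, 3 lay above 0 and 5 below. Over all 9157 transcripts the median was 0.013, the central 95% ran from -0.32 to 0.28, and 54.7% lay above 0. Over the same transcripts 3.22% were at least 1.2-fold higher and 3.83% at least 1.2-fold lower, so with 8 members a count of 0 in either direction is near what the background share gives.

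The inducible co-chaperones were near vehicle with PF8503. DNAJB1 had a mean of 1154 normalized counts in vehicle and 1185 with PF8503, a log2 ratio of 0.039. BAG3 had 731 and 762, a log2 ratio of 0.060. HSPH1 had 2444 and 2349, a log2 ratio of -0.057. These genes, which HSF1 induces under heat, lay between -3.88% and 4.26% from vehicle, at the 27.1 to 66.4 percentiles of the table. HSPA4 had 3454 normalized counts in vehicle and 3462 with PF8503, a log2 ratio of 0.0031, the nearest to 0 of all members.

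The abundant chaperones were slightly lower with PF8503 in the means. HSPA8 had 37409 normalized counts in vehicle and 36923 with PF8503, a log2 ratio of -0.019. HSP90AA1 had 39618 and 38247, a log2 ratio of -0.051. HSP90AB1 had 37239 and 35601, a log2 ratio of -0.065. The constitutive and the inducible HSP90 had means that differed from vehicle by -4.40% and -3.46%, close to each other. Transcripts of like level, those with a vehicle mean within 2-fold of the gene's, were few for these members, 29 for HSP90AA1 and 34 each for HSPA8 and HSP90AB1. Their central 95% was wide with PF8503, from -0.58 to 0.13 around HSP90AA1, and held the values of all 3 genes.

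HSPB1 was the lowest member with PF8503. Its mean was 8383 normalized counts in vehicle and 6987 with PF8503, a log2 ratio of -0.26 or a difference of -16.7%. This was just short of the threshold, -0.2628 against 0.2630 for 1.2-fold, and lay at the 3.83 percentile of the table. When the ratios were centred on the table's median, HSPB1 passed the threshold, 1 of 8 members, beside 4.22% of all transcripts. The 379 transcripts of like level had a central 95% of -0.38 to 0.16, which held HSPB1. Without HSPB1 the other 7 members ran from -0.065 to 0.060, with a median of -0.019.

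**Figure D3:**
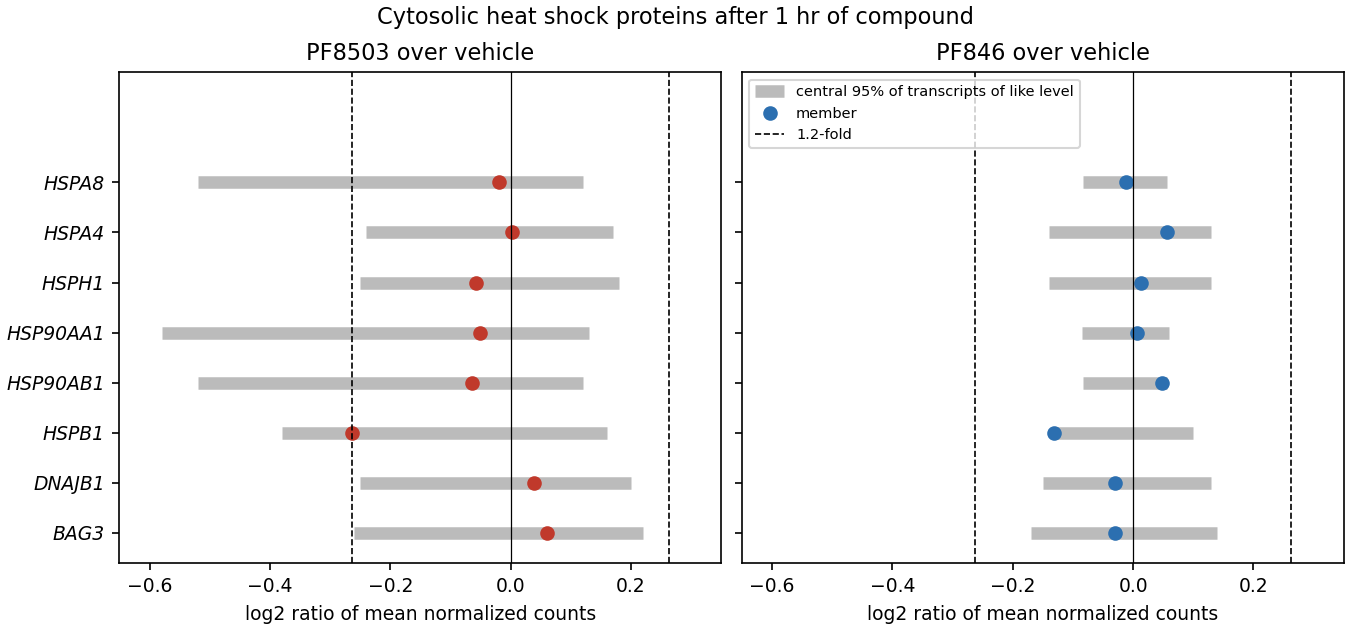
Log2 ratio of mean normalized counts, compound over vehicle, for the 8 measured members (points), PF8503 left and PF846 right. Grey bars show the central 95% of transcripts with a vehicle mean within 2-fold, dashed lines mark 1.2-fold. HSPB1 is the lowest member in both panels, at -0.26 and -0.13, and the other 7 lie between -0.065 and 0.060.

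None of the 8 measured members was at least 1.2-fold higher or lower with PF846, and the members lay closer to 0. Their log2 ratios ran from -0.13 (HSPB1) to 0.057 (HSPA4), with a median of -0.0030, and 4 lay above 0 and 4 below. Over all 8839 transcripts the median was 0.00086, the central 95% ran from -0.23 to 0.22, and 50.3% lay above 0. Over those transcripts 1.43% were at least 1.2-fold higher and 1.90% at least 1.2-fold lower, so a count of 0 among 8 is again near the background.

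DNAJB1 had a mean of 1056 normalized counts in vehicle and 1035 with PF846, and BAG3 had 669 and 655. Both log2 ratios were -0.030. HSPH1 had 2237 and 2257, a log2 ratio of 0.013. The inducible co-chaperones thus lay between -2.05% and 0.887% from vehicle. HSPA4, with 3162 and 3289 and a log2 ratio of 0.057, was the highest member with PF846, at the 75.0 percentile of the table.

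HSPA8 had 34240.4 normalized counts in vehicle and 33943 with PF846, a log2 ratio of -0.013. HSP90AA1 had 36264 and 36429.6, a log2 ratio of 0.0066. HSP90AB1 had 34086 and 35230.2, a log2 ratio of 0.048. All 3 were inside the central 95% of transcripts of like level, which was narrower with PF846, from -0.083 to 0.056 around HSPA8 and HSP90AB1. HSPB1 had 7673 normalized counts in vehicle and 7006 with PF846, a difference of -8.70%. Its log2 ratio was -0.131, just outside the central 95% of the 379 transcripts of like level, whose lower end was -0.130. Without HSPB1 the median of the members with PF846 was 0.0066 and their range -0.030 to 0.057.

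PF8503 and PF846 were used at the same dose and time, so the 8 pairs of ratios were set side by side. The vehicle means of a transcript in both tables stood in the ratio 1.093 where the same codons had been counted, as in 98.5% of the 8775 shared transcripts, and all 8 members met this within 0.002 on the log2 scale. Both ratios of a gene share the vehicle libraries, so their difference is that of the compound means once the factor of 1.093 is taken out. None of the 8 differences could be tested or given an interval.

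The difference PF8503 minus PF846 in log2 ratio was largest for HSPB1, -0.13, followed by HSP90AB1 with -0.11. It was 0.090 for BAG3, -0.070 for HSPH1 and 0.069 for DNAJB1. The remaining differences were -0.057 for HSP90AA1, -0.054 for HSPA4 and -0.0063 for HSPA8. DNAJB1 and BAG3 were thus above their PF846 values with PF8503, and the other 6 members below. These 6 of 8 compare with 46.1% of all shared transcripts lower with PF8503, and the members' median difference was -0.056 beside 0.011 over all. Each of the 8 differences lay within the central 95% of all transcripts, -0.30 to 0.27. A difference this small does not show that the compounds act alike, since the spread between libraries was not known.

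The wider heat shock response was followed through 13 lists of 108 genes in all, of which 93 had a row in both tables. With PF8503, 0 list genes were at least 1.2-fold higher and 3 at least 1.2-fold lower, with a median log2 ratio of -0.024. With PF846, 1 was higher and 1 lower, with a median of -0.0063. The background shares of transcripts past 1.2-fold are those given above. Of the 15 genes with no row, 12 had at least 90% of their windows found once among the transcripts searched here. Whether their reads had a single position in the authors' reference was not tested.

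Among 21 other genes that HSF1 induces, 18 had a row, and their median log2 ratio was -0.035 with PF8503 and 0.010 with PF846. With PF8503 1 of the 18, HSPB8, passed 1.2-fold, and with PF846 1, DNAJB4. HSPB8, a small heat shock protein that works in a complex with BAG3, had a mean of 149 normalized counts in vehicle and 114 with PF8503, a log2 ratio of -0.39. With PF846 it stood at 136 and 133. HSPB8 was the only listed member of the other small heat shock proteins, of 5 sought. DNAJB4, a J-domain protein close to DNAJB1, had 57.1 normalized counts in vehicle and 70.6 with PF846, a log2 ratio of 0.31, and 62.4 and 70.5 with PF8503, a log2 ratio of 0.18. In vehicle HSPB8 had 0.844 normalized counts per codon, near the median of all transcripts, and DNAJB4 had 0.197, below it. ZFAND2A, a sensitive HSF1 target chosen after its values were seen, had 239.7 and 219 with PF8503 and 219 and 212 with PF846.

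The other partners of HSP70 had list medians near 0, with single genes farther away. Cytosolic J-domain proteins ran from -0.14 to 0.24 with PF8503 and from -0.15 to 0.31 with PF846. Other exchange factors and partners ran from -0.078 to 0.14 with PF8503 and from -0.20 to 0.11 with PF846. Of 16 other cytosolic J-domain proteins, 15 had a row, with medians of -0.029 and -0.019 for PF8503 and PF846 and only DNAJB4 past 1.2-fold. DNAJA1, a J-domain partner of HSPA8 and the densest of this list at 14.9 normalized counts per codon, had log2 ratios of -0.022 and 0.044. Of 8 other HSP70 exchange factors and partners, 6 had a row and 0 passed in either direction with either compound, with medians of -0.011 and -0.022. The densest was ST13 (HIP), which stabilizes HSP70 on its client, at 15.7. Of 8 other HSP70 and HSP110 proteins, 4 had a row, HSPA2, HSPA4L, HSPA13 and HSPA14, and 0 passed, with medians of -0.025 and -0.011. HSPA14, the densest of these at 2.34, had log2 ratios of -0.14 and -0.0090. HSPA6, a strictly stress-induced HSP70, had no row.

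The HSP90 machinery was near vehicle as well. Of 15 HSP90 co-chaperones, 14 had a row and 0 passed with either compound, with medians of -0.013 and 0.010. PTGES3 (p23), which stabilizes the closed form of HSP90, was the densest at 49.0 normalized counts per codon, close to HSP90AB1, with log2 ratios of -0.087 and 0.012. AHSA1, an activator of the HSP90 ATPase, had 2444 normalized counts in vehicle and 2445 with PF8503, and 2237 and 2238 with PF846. CDC37L1, at -0.26 with PF846, was the co-chaperone farthest from 0.

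The factors that drive the response were measured at modest levels. HSF1 had 432 normalized counts in vehicle and 449.6 with PF8503, and 395 and 391 with PF846. HSF2 had 383 and 364 with PF8503, and 350.2 and 343 with PF846. HSBP1, a small negative regulator of HSF1, was the densest of this list at 17.5 normalized counts per codon, with log2 ratios of -0.11 and -0.054. These footprints follow the ribosomes on HSF1 mRNA, not activation of HSF1, which occurs on existing protein. No mRNA level was read here, so for any gene a footprint ratio cannot separate mRNA level from translation.

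The study describes both compounds as stalling translation of certain nascent chains, so a list of nascent chain chaperones was read as well. It held NACA, BTF3, DNAJC2, HSPA14 and the prefoldin genes PFDN1, PFDN2, PFDN4, PFDN5, PFDN6 and VBP1, which are not ribosome-bound as a group. All 10 listed genes had a row and 0 passed 1.2-fold in either direction. With PF8503 their median log2 ratio was -0.13, with 9 of 10 below 0. Over all transcripts the median was 0.013 and 54.7% lay above 0. With PF846 the median was -0.021, with 7 of 10 below 0, where 50.3% of all transcripts lay above 0. These genes were not compared with transcripts of like level. BTF3, the beta subunit of the nascent polypeptide-associated complex and the densest by canonical length at 32.9 normalized counts per codon, had log2 ratios of -0.14 and -0.060. HSPA14 and DNAJC2, which form a ribosome-bound HSP70 system, had -0.14 and -0.016 with PF8503.

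In the other folding compartments, the cytosolic chaperonin, which folds actin and tubulin, had all 8 subunits measured, with medians of -0.025 and 0.020 and 0 past 1.2-fold. Its densest subunit was CCT6A at 29.0. Of 6 mitochondrial heat shock proteins 5 had a row, 0 passed, and the medians were 0.0038 and 0.017. HSPD1 (HSP60), at 51.6 normalized counts per codon, had log2 ratios of -0.12 and 0.017.

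Of 11 chaperones of the endoplasmic reticulum, all with a row, 2 were at least 1.2-fold lower with PF8503 and 0 with PF846. Over all transcripts the shares at least 1.2-fold lower were 3.83% and 1.90%. HSP90B1 (GRP94), the HSP90 of the endoplasmic reticulum, had 25890.2 normalized counts in vehicle and 19177 with PF8503, a log2 ratio of -0.43, and 23699 and 22549 with PF846, a log2 ratio of -0.072. Its cytosolic relatives HSP90AA1 and HSP90AB1 had -0.051 and -0.065 with PF8503. DNAJB9, a J-domain partner of HSPA5, had 265 and 120.0 with PF8503, a log2 ratio of -1.14, and 403 and 387 with PF846. The counted region of DNAJB9 differed between the tables, and in the PF8503 table it held 60.2% of the vehicle reads of the PF846 region. Where the authors found a stall, they counted codons only 3′ of the position where cumulative compound and vehicle reads differed most. The DNAJB9 ratio is thus not directly comparable with that of HSP90B1, counted over the same codons for both compounds. HSPA5 (BiP), the HSP70 of the endoplasmic reticulum and target of the unfolded protein response, had 20335 and 17807 with PF8503, a log2 ratio of -0.19, and -0.037 with PF846. The densest of the list was CALR at 62.9, with log2 ratios of 0.015 and -0.0082.

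Other stress responses were read beside the heat shock proteins. Of 9 genes of the integrated stress response, which lowers initiation and raises translation of ATF4, 8 had a row, with medians of 0.063 and -0.057. ATF3 had 209 normalized counts in vehicle and 218 with PF8503, but 191 and 154 with PF846, a log2 ratio of -0.31, and was the gene past the threshold. ATF4 had log2 ratios of 0.0087 and -0.020, and ASNS, the densest of the list at 3.94, had -0.031 and -0.094. All 6 oxidative and proteotoxic stress genes had a row and 0 passed, with medians of 0.022 and 0.0014. HMOX1, induced by electrophiles and heme, had 0.078 and 0.012, and NQO1, the densest at 15.3, had -0.042 and -0.063.

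**Figure D4:**
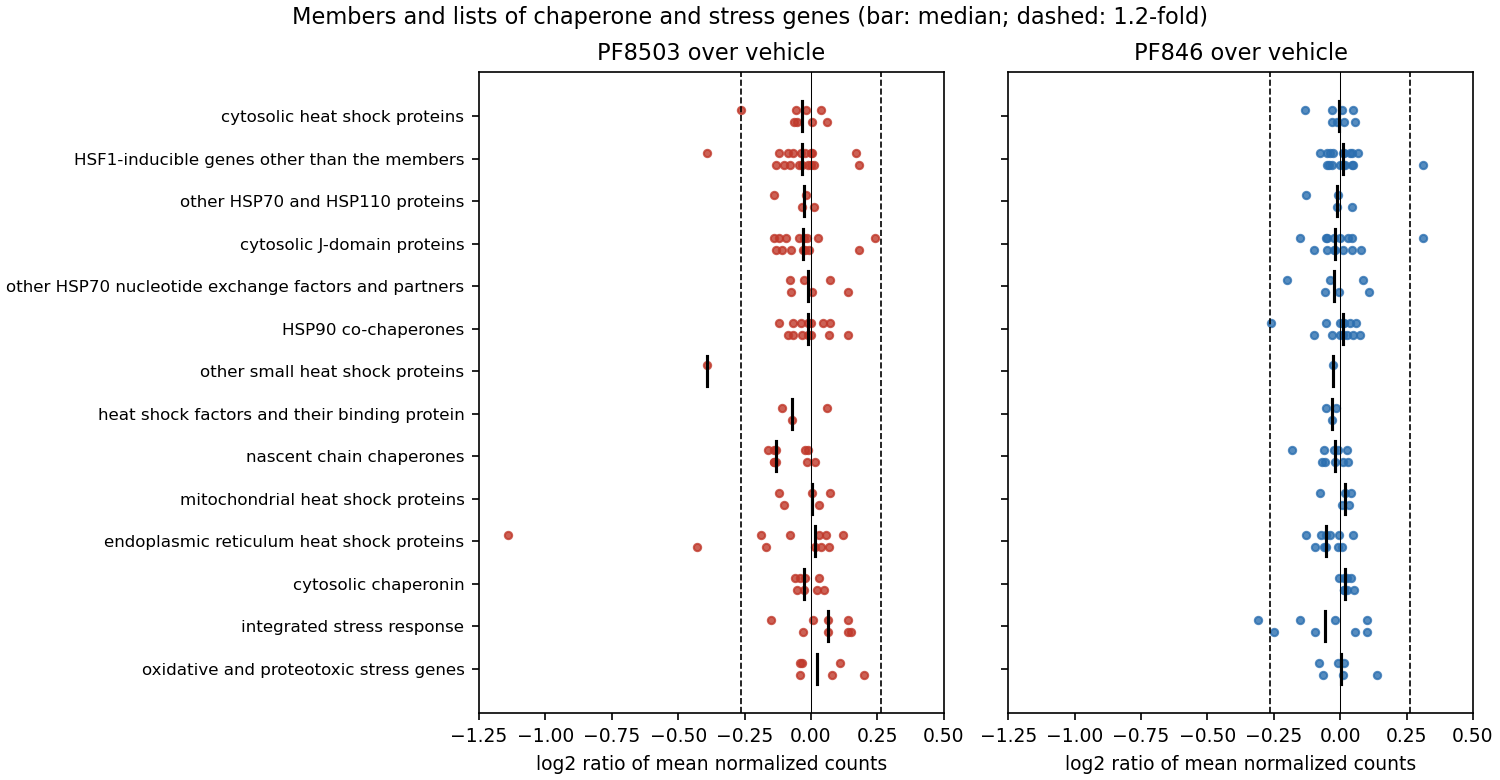
Log2 ratios of the genes in each list of the heat shock network and other stress responses, compound over vehicle (mean normalized counts), one point per gene, PF8503 and PF846 in separate panels. Short bars are medians and dashed lines 1.2-fold, with the 8 measured members in the top row. List medians lie between -0.13 and 0.063, apart from HSPB8 alone at -0.39 among the other small heat shock proteins with PF8503, and DNAJB9 is the lowest point at -1.14.

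The labelled cell type was checked on hepatocyte markers, all 9 of which had a row. AFP stood at 362, ALB at 252, APOA1 at 104 and APOA2 at 64.3 normalized counts per codon in vehicle, above every member. TF at 37.7, FGB at 23.7, APOB at 21.4, TTR at 15.8 and SERPINA1 at 3.26 lay below HSPB1. None of 8 erythroid markers, of a line used elsewhere in the study, had a row.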

How the data were processed

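The study made ribosome profiling libraries from Huh-7 cells. Per its methods, the authors aligned footprints with Bowtie to canonical coding transcripts (GENCODE version 24, GRCh38), kept reads with a single position, and counted codons from 10 after the start, or 3′ of a stall with a Z score of at least 2, to 10 before the end, for transcripts with more than 30 counts. Tool versions are not given in the sources used here. As deposited by the authors, the signal values are normalized counts, read counts divided by DESeq size factors and averaged over the libraries of a condition. Further columns deposited by the authors hold the fold change (a ratio), its log2, and the p-value with its adjustment, and none of these was used. The tables hold 0 columns of single samples, so depth per library is unknown, no count model could be fitted, and no test was run. The 3 libraries of a condition are replicates by their labels.

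The log2 ratio of the compound mean over the vehicle mean was computed for every transcript, and called where past 1.2-fold. Alternatives were folds of 1.1 and 1.5, ratios centred on the table median, means scaled to the same total, a pseudocount of 5, a minimum mean of 100, and transcripts in both tables. Counts per codon, 28-base windows and positions used GENCODE version 44. Promoters were from RefSeq (GRCh38.p14). Symbols were matched as the tables give them. For the counts of RefSeq coding genes with a row, symbols not found in RefSeq were also matched by its synonyms. The ratio step was tested on simulated data. Python 3.11.15, numpy 2.4.6, pandas 2.3.3, matplotlib 3.10.9 and biopython 1.88 were used.

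Members and gene lists were chosen with earlier results of these data known. Named were all 10 members, each list gene past 1.2-fold, and the gene with the highest footprint density of each list. Other list genes named were chosen after their values were seen. NACA has a long canonical entry, which lowers its density.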

Additional observations from a re-analysis of the deposited data

How the results depend on the processing

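No paired analysis was possible because the columns are means over the libraries of a condition, and for the same reason no library could be left out in turn. At 1.1-fold, 1 of 8 members (HSPB1) passed with PF8503, as it did at 1.2-fold when ratios were centred on the table median, in place of 0. The count of list genes past the threshold with PF8503 was 14 at 1.1-fold and 1 at 1.5-fold, in place of 3. With PF846 it was 9 at 1.1-fold, 0 at 1.5-fold and 1 with a minimum mean of 100, in place of 2. The share of all transcripts past 1.1-fold or 1.5-fold was not computed, so the counts at these folds cannot be set against a background. With 2 units in place of 3, the heat shock element was found in 7 members rather than 3. The alternatives for the lists and the median without HSPB1 were chosen after seeing the data. The median of the members ran from -0.048 to -0.019 with PF8503 and from -0.0039 to 0.0066 with PF846, where its sign turned without HSPB1. Of 48 alternative values of single members the largest move was 0.013 on the log2 scale, and 1 changed sign, HSPA4 with PF8503 at -0.0096 when centred. The order of the 8 members by density and their summed shares were the same. Depth per library is unknown, so a change smaller than the spread between libraries could not be told from none, which bears most on genes of low mean such as DNAJB4.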
